A study of Mus musculus with 14 samples.

Results

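Clade B serpins were measured with 11 array probes for 10 genes in mSCC-38, a mouse cell line from a skin squamous cell carcinoma of the DMBA and TPA model. The members were all probes of the array, controls left out, whose gene name was Serpinb1a, Serpinb2, Serpinb3a, Serpinb5, Serpinb6a, Serpinb6b, Serpinb8, Serpinb9, Serpinb9b or Serpinb9e, out of 55681 probes for 34947 genes. Cells of all groups were grown in DMEM with fetal calf serum. Cells were transfected for 72 h, with the lipid reagent RNAimax, with Si1AK (4 arrays) or Si2AK (3 arrays), a pair of distinct siRNAs directed at the mouse transcript AK144841, or with a control siRNA named SiC (3 arrays). Untransfected cells (NT, 4 arrays) were the other baseline, and no time in culture is given for them. Differences from NT therefore include whatever transfection itself does. No value shows the knockdown, since AK144841 itself was not analysed here. Whether replicates were separate cultures is not stated, so a p-value here covers the spread between arrays of 1 group, and that spread may be technical.

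Serpins are protease inhibitors that work as bait. A protease cuts the exposed reactive loop of the serpin, and the serpin then changes shape and traps the protease in a bound, inactive form. Members of clade B lack a classical secretion signal and mostly act inside cells, where they guard the cell against its own lysosomal proteases or against granule proteases of immune cells. In mice the family lies in gene clusters on chromosome 1 and chromosome 13, and several human genes have many mouse counterparts there. In the epidermis and in squamous carcinoma, Serpinb2, Serpinb3 genes and Serpinb5 are known as products of keratinocytes.

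Because copies of this family are alike, each probe was compared with the probes of the other clade B genes. Each probe has 60 bases. For Serpinb6a, the best match among all other clade B probes was the probe of Serpinb6c, with 55 of 59 overlapping bases identical. For Serpinb3a it was Serpinb3c, with 43 of 48. The best-matching 30 bases of these pairs are shown 5′ to 3′, with differing bases in capitals.
Serpinb6a: aagtgaccttatccataagtgcaatgGcaA
Serpinb6c: aagtgaccttatccataagtgcaatgAcaG
Serpinb3a: ttcttctaatctagcatAtatctgtgccct
Serpinb3c: ttcttctaatctagcatGtatctgtgccct
The other 8 members had at most 29 identical bases in any ungapped overlap of 30 bases or more with the probe of another clade B gene. The longest runs shared with those best matches were 5 to 8 bases. Probes were not compared with the rest of any transcript, so a low match cannot show that a probe reads 1 gene alone. Values of Serpinb6a and Serpinb6c may hold signal of both transcripts and are uncertain as values of 1 gene. The first 30 bases of the probes behind the members called below identify these probes. Those of Serpinb8 are largely short repeats of ct and tg, and what else this probe binds was not tested.
Serpinb2: catcataagtaagcatgcttacttacacac
Serpinb5: ccaagtctcagggaacttgtctgtagtcgc
Serpinb8: ttatacgtctctctgtgtgtgtttgtgtgt
Serpinb1a: attttcttcattcggcacaatcccacatct
Serpinb9: ttccttcattgatgaacagtgatgtaaacg
Serpinb9e: gggtgaggactgctacttttattttcctgg
On build mm9 these probes lie at chr1:109422046-109422105 (Serpinb2, plus strand), chr1:108778585-108778644 (Serpinb5, plus strand), chr1:109504865-109504924 (Serpinb8, plus strand), chr13:32934693-32934752 (Serpinb1a, minus strand), chr13:33109767-33109824 (Serpinb9, plus strand) and chr13:33352399-33352458 (Serpinb9e, plus strand). Exons and untranslated regions were not analysed here.

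Levels are log2 of the processed signal minus the 75th percentile of the array, so 0 is the 75th percentile, and levels of different probes are not compared. A gene was tested if its probe was well above background, by the mark of the scanner software, on every array of at least 1 group. This held for 8 of the 10 members. Serpinb3a, a relative of the human squamous cell carcinoma antigens, was well above background on 1 of 14 arrays, replicate 1 of SiC. Serpinb9b, a relative of Serpinb9, was well above background on 0 of 14. No difference is given for either. Differences were tested with limma over 21356 genes and called at a Benjamini-Hochberg adjusted p below 0.05.

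On 2 arrays the signal was raised. SiC replicate 1 had a median processed signal of 270.9 and Si2AK replicate 2 had 107.5, where the other 12 had 23.5 to 58.7. Of their probes 90.5% and 84.9% passed the background mark, against 52.7% to 60.1% elsewhere. The arrays came from 2 slides. SiC had 1 array on slide 1 and 2 on slide 2, and for Si2AK the numbers were the reverse. The label of the cell line was checked against 18 keratinocyte genes. Of these, 16 were well above background on all 14 arrays, among them Krt5, Krt14 and Trp63, while Cdh1 and Dsg3 were not well above background on every NT array.

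With Si2AK, 5 of the 8 tested members rose against SiC and 0 fell, where 13.3% of all tested genes were called, 8.55% higher and 4.73% lower. Serpinb1a rose most, 3.34-fold, followed by Serpinb2, Serpinb5, Serpinb9 and Serpinb8. With Si1AK, Serpinb2 rose 2.12-fold, and Serpinb1a and Serpinb9e fell, where 4.42% of all tested genes were called, 3.23% higher and 1.19% lower. The median difference of the 8 members was 0.77 with Si2AK, against -0.02 over all genes. With Si1AK it was 0.04, against -0.06 over all genes. Both comparisons use the same SiC arrays. Fits that held only the groups compared called Serpinb2 alone in each comparison. They called 0.482% of all genes with Si2AK and 1.29% with Si1AK. Without both arrays of raised signal, 4 members were called with Si2AK and 3 with Si1AK, where 9.74% and 4.68% of all genes were called. The differences were then 1.55 for Serpinb1a, 1.28 for Serpinb2, 0.92 for Serpinb5 and 0.82 for Serpinb9 with Si2AK. With Si1AK they were 0.98 for Serpinb2, -1.27 for Serpinb1a and -2.02 for Serpinb9e. Against NT, with all arrays, neither Serpinb1a (-0.52) nor Serpinb9e (-0.13) was called with Si1AK. The fall of Serpinb9e against SiC was not called after quantile normalization (-0.81) or in the authors' deposited table (-0.53). In these cultures, fewer cells that carry a transcript and less of it per cell cannot be told apart.

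**Figure D1:**
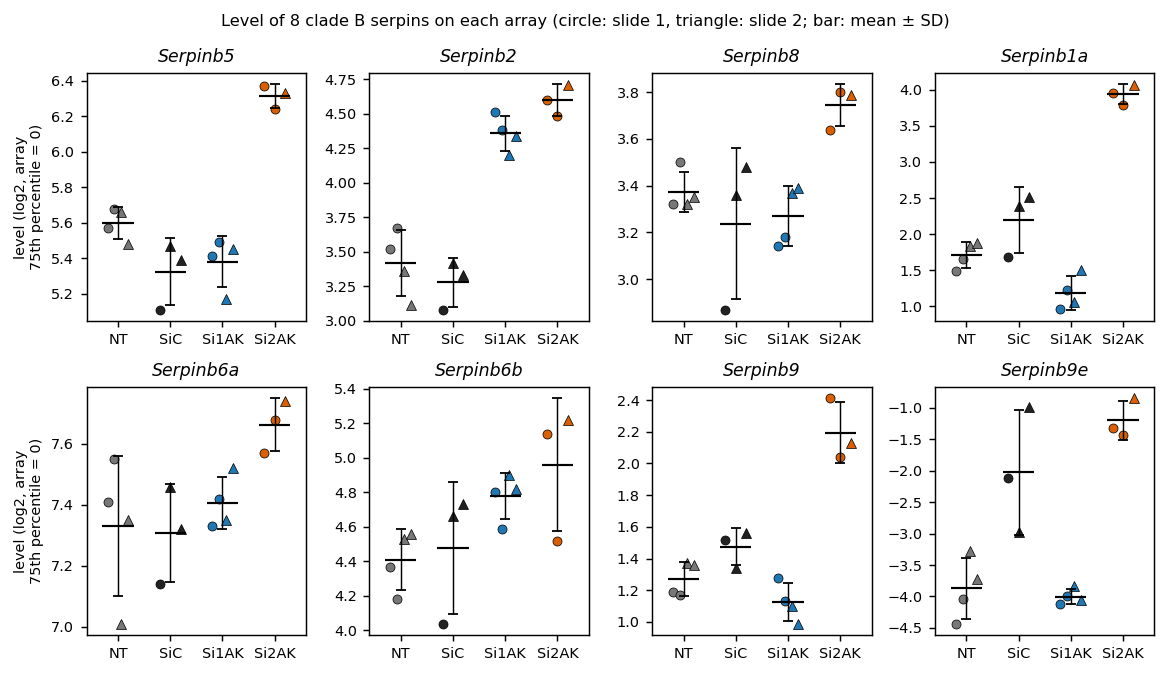
Level of the 8 tested members on each of the 14 arrays, on the log2 scale with the 75th percentile of the array at 0. Points are arrays (circles slide 1, triangles slide 2), bars are group means with SD. Serpinb2 stands at 4.20 or higher on all Si1AK and Si2AK arrays and at 3.67 or lower on all others. Serpinb1a stands at 3.79 to 4.06 in Si2AK and at 0.97 to 1.50 in Si1AK.

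Serpinb2 encodes plasminogen activator inhibitor type 2, an inhibitor of urokinase. Its levels were 3.52, 3.67, 3.36 and 3.11 in NT and 3.08, 3.42 and 3.33 in SiC. They were 4.51, 4.38, 4.20 and 4.34 in Si1AK and 4.60, 4.48 and 4.71 in Si2AK. Every array of either siRNA against AK144841 lay above every control array, while NT and SiC overlapped. Lack of overlap was common, here and for the members below. Against SiC it held for 19.7% of all tested genes with Si1AK (4 of 8 members) and 26% with Si2AK (6 members). Against NT it held for 21.4% with Si1AK (2 members), 26.7% with Si2AK (7 members) and 6.33% with SiC (2 members). Between Si2AK and Si1AK it held for 29.2% (6 members). Serpinb2 rose by 1.08 ± 0.135 (SE; limma adjusted p = 0.00128) with Si1AK and by 1.32 ± 0.144 (adjusted p = 0.000289) with Si2AK against SiC. It was the 1 member called higher with both. Against NT it rose by 0.94 ± 0.125 and 1.18 ± 0.135. Si2AK and Si1AK overlapped, with a difference of 0.24 (95% interval -0.06 to 0.53, adjusted p = 0.34), so a difference of up to 0.53 between them is within this interval.

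Serpinb5 encodes maspin, a serpin of epithelial cells that is known for lacking protease inhibition. Its levels were 5.57, 5.68, 5.66 and 5.48 in NT and 5.11, 5.47 and 5.39 in SiC. They were 5.41, 5.49, 5.17 and 5.45 in Si1AK and 6.37, 6.24 and 6.33 in Si2AK. The Si2AK arrays were all above every other array, and SiC and Si1AK overlapped. Serpinb5 rose 1.98-fold with Si2AK, by 0.99 ± 0.112 (SE; adjusted p = 0.000346) against SiC. For Si1AK against SiC the difference was 0.06 (95% interval -0.17 to 0.28, adjusted p = 0.779). Si2AK stood above Si1AK by 0.93 ± 0.105 (adjusted p = 0.000187).

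Serpinb8 encodes a serpin known to inhibit furin-type convertases. Its levels were 3.32, 3.50, 3.32 and 3.35 in NT and 2.87, 3.36 and 3.48 in SiC. They were 3.14, 3.18, 3.37 and 3.39 in Si1AK and 3.64, 3.80 and 3.79 in Si2AK. The Si2AK arrays were the highest, by a small margin, and the lowest value was that of SiC replicate 1, an array of raised signal. Serpinb8 rose by 0.51 ± 0.142 (SE; adjusted p = 0.0358) with Si2AK against SiC. Without SiC replicate 1 the difference was 0.32 and was not called, and without both arrays of raised signal it was 0.29 and not called. The call was also lost without NT replicate 1 (0.51) or without any 1 of the Si2AK replicates (0.56, 0.48 and 0.48), and likewise with the authors' deposited table (0.33) or no filter on dim probes (0.51).

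Upstream sequence was at hand for 9 of the 10 members, from RefSeq on build GRCm38.p6, and Serpinb1a had no entry. In 250 bases before the start, the AP-1 type motif TGANTCA (either strand) was found in Serpinb2, Serpinb5 and Serpinb8, the 3 tested members on chromosome 1, and in none of the other windows of members. It was found in 6.75% of 32851 windows of the same length. A window of each of these 3 genes, picked by the match, is shown 5′ to 3′ with the motif in capitals.
Serpinb2 (chr1:107511173-107511422, plus strand): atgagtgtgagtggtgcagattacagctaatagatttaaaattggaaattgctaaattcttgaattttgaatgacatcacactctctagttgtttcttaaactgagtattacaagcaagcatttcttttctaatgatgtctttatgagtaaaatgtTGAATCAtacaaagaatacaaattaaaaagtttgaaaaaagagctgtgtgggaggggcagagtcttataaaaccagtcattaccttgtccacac
Serpinb5 (chr1:106860925-106861174, plus strand): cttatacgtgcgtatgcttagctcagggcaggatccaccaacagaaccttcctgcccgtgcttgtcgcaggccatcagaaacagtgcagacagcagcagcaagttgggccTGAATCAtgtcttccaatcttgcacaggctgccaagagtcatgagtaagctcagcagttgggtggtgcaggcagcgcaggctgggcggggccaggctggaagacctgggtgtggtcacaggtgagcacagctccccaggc
Serpinb8 (chr1:107589756-107590005, plus strand): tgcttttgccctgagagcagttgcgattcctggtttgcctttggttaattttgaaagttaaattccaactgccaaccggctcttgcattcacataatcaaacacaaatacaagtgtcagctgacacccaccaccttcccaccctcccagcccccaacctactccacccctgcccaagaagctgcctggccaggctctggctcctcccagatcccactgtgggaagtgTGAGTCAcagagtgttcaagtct
The motif begins 94, 140 and 23 bases before the start. Any base was allowed at its centre, and it reads TGAATCA in Serpinb2 and Serpinb5 and TGAGTCA in Serpinb8. TATAAA was in Serpinb2 and Serpinb3a and in 12.4% of all windows. The looser E-box motif CANNTG was in 66.2% of all windows and in 5 of the 11 windows of members. Serpinb2 and Serpinb6a had 2 windows each, and those of Serpinb2 share the motif. A match describes the letters and shows no binding. Serpinb9 rose with Si2AK without the motif, and for Serpinb1a, which rose most, no sequence was at hand. The rise of Serpinb8 was called in 16 of 27 processing settings. A link between motif and rise was not tested.

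Serpinb1a encodes an inhibitor of neutrophil elastase and cathepsin G. Its levels were 1.49, 1.66, 1.83 and 1.88 in NT and 1.68, 2.39 and 2.52 in SiC. They were 0.97, 1.23, 1.06 and 1.50 in Si1AK and 3.96, 3.79 and 4.06 in Si2AK. The siRNAs lay on opposite sides of SiC with no overlap, although the highest Si1AK array overlapped NT. Serpinb1a rose by 1.74 ± 0.21 (SE; adjusted p = 0.000463) with Si2AK and fell by 1.01 ± 0.196 (adjusted p = 0.0147) with Si1AK against SiC. Si2AK stood 6.70-fold above Si1AK, a difference of 2.74 ± 0.196 (adjusted p = 9.86e-06). Against NT, Si2AK was higher by 2.22 ± 0.196 and called, and Si1AK differed by -0.52 (95% interval -0.92 to -0.13, adjusted p = 0.115). The fall with Si1AK was not called without SiC replicate 2 (-0.91), SiC replicate 3 (-0.85) or Si1AK replicate 1 (-0.93).

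Serpinb6a encodes an abundant inhibitor of trypsin-like proteases and cathepsin G, and Serpinb6b is a close relative. Serpinb6a levels were 7.41, 7.55, 7.01 and 7.35 in NT, 7.14, 7.46 and 7.32 in SiC, 7.33, 7.42, 7.35 and 7.52 in Si1AK and 7.57, 7.68 and 7.74 in Si2AK. The Si2AK arrays were highest, just above the highest of the others, and the other groups overlapped. The difference for Si2AK against SiC was 0.35 (95% interval 0.06 to 0.64, adjusted p = 0.108), and without NT replicate 3 it was called at the same size. Serpinb6b levels were 4.37, 4.18, 4.53 and 4.56 in NT, 4.04, 4.66 and 4.73 in SiC, 4.80, 4.59, 4.90 and 4.82 in Si1AK and 5.14, 4.52 and 5.22 in Si2AK. The lowest SiC and the lowest Si2AK value were those of the arrays of raised signal. The difference for Si2AK against SiC was 0.48 (95% interval 0.02 to 0.94, adjusted p = 0.179). It was 0.70 without Si2AK replicate 2 and 0.59 with the slide as a block, and was called in both. Without SiC replicate 1 it was 0.26 and not called. In the reported fit, neither gene was called in any of the 6 comparisons. Over 27 processing settings, Si2AK was called higher than NT in 2 for Serpinb6a and in 6 for Serpinb6b. Si1AK was called higher than NT in 1 setting for each gene.

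Serpinb9 encodes the inhibitor of granzyme B, with which cytotoxic lymphocytes shield themselves from their own granules. Its levels were 1.19, 1.17, 1.37 and 1.36 in NT and 1.52, 1.34 and 1.56 in SiC. They were 1.28, 1.13, 1.10 and 0.99 in Si1AK and 2.41, 2.04 and 2.13 in Si2AK. The Si2AK arrays lay above all others, and the Si1AK arrays lay below every SiC array and overlapped NT. Serpinb9 rose 1.65-fold with Si2AK, by 0.72 ± 0.116 (SE; adjusted p = 0.00221). With Si1AK the difference from SiC was -0.35 (95% interval -0.58 to -0.11, adjusted p = 0.105). Si2AK stood above Si1AK by 1.07 ± 0.108 (adjusted p = 0.000102).

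Serpinb9e is a further gene of the Serpinb9 group on chromosome 13. On the brighter of its probes the levels were -4.43, -4.04, -3.28 and -3.73 in NT and -2.11, -2.97 and -0.99 in SiC. They were -4.12, -4.0, -3.83 and -4.06 in Si1AK and -1.32, -1.43 and -0.85 in Si2AK. SiC spread more widely than the other groups, lay above NT on all 3 arrays, and overlapped Si2AK with its highest. Serpinb9e rose by 2.80 ± 0.388 (SE; adjusted p = 0.000697) with Si2AK against Si1AK and by 2.67 ± 0.388 (adjusted p = 0.000845) against NT. It fell by 1.98 ± 0.388 (adjusted p = 0.0151) with Si1AK against SiC, while against NT the difference was -0.13 (95% interval -0.92 to 0.65, adjusted p = 0.87). Against SiC the Si2AK difference was 0.82 (95% interval -0.09 to 1.73, adjusted p = 0.249), and 1.34 without SiC replicate 3, where it was called. Without SiC replicate 2 it was 0.35 and not called.

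The choice of probe and scaling bore on Serpinb9e. Its dimmer probe was well above background on 9 of 14 arrays, which included all 3 of Si2AK. On that probe, fitted with no filter on dim probes, Si2AK differed from Si1AK by 2.50 (adjusted p = 0.0243), from SiC by 1.67 (adjusted p = 0.182) and Si1AK from SiC by -0.83 (adjusted p = 0.351). The fall with Si1AK against SiC was -0.81 after quantile normalization, -0.53 in the authors' deposited table and -1.41 with the probes of a gene averaged, and was called in none of these. Without SiC replicate 3 it was -1.47, and called. Scaling also moved the called rises of Serpinb9e. Against Si1AK the Si2AK difference was 1.73 in the authors' deposited table, and against NT it was 1.57 after normexp background correction, and both were called. The uncalled difference of SiC from NT was 0.63 in the authors' deposited table.

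**Figure D2:**
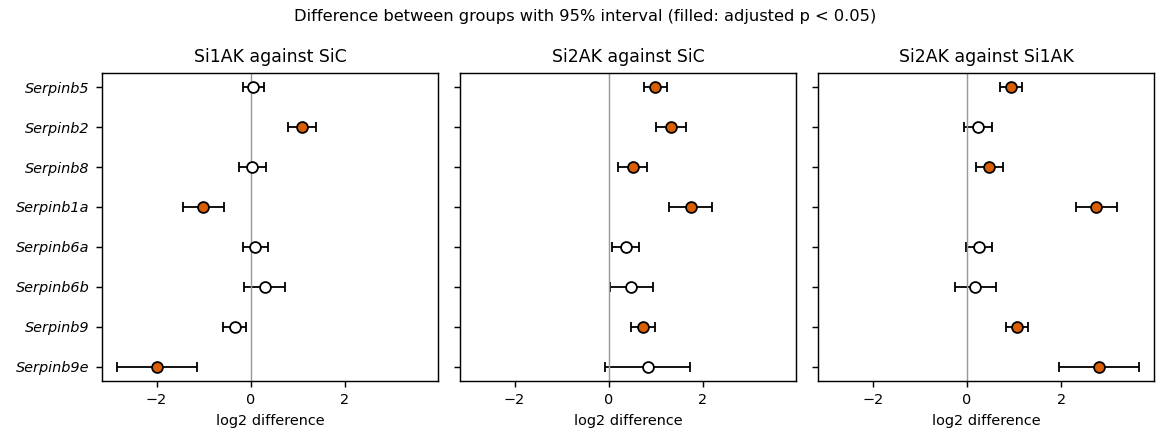
Log2 difference of the 8 tested members for Si1AK against SiC, Si2AK against SiC and Si2AK against Si1AK, with 95% intervals of limma. Filled points have an adjusted p below 0.05. Serpinb1a and Serpinb9e lie left of 0 with Si1AK (-1.01 and -1.98) and right of 0 for Si2AK against Si1AK (2.74 and 2.80), and Serpinb2 lies right of 0 with both siRNAs.

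Compared directly, Si2AK stood above Si1AK for 5 of the 8 members and below for 0, where 12.6% of all genes were called (6.34% higher, 6.31% lower). These were Serpinb9e, Serpinb1a, Serpinb9, Serpinb5 and Serpinb8, the last by 0.48 ± 0.133 (adjusted p = 0.0364). That call of Serpinb8 was lost without NT replicates 1 or 3 (0.48 each), without Si1AK replicates 1, 2 or 3 (0.43, 0.45 and 0.51) and without any 1 of the Si2AK replicates (0.53, 0.45 and 0.45). The median over the members was 0.70, against 0.09 over all genes.

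SiC against NT gave calls for 0 of the 8 members and for 0% of the 21356 genes with limma, of which 1662 had an unadjusted p below 0.05. Among the members, Serpinb9e (1.85 ± 0.388), Serpinb1a (0.48 ± 0.196) and Serpinb5 (-0.27 ± 0.105) were below an unadjusted 0.05, each with an adjusted p = 0.612. Against NT, Si2AK gave 5 higher members and 0 lower, Serpinb9e, Serpinb1a, Serpinb2, Serpinb9 and Serpinb5, where 15.9% of all genes were called (7.88% higher, 7.99% lower). Without SiC replicate 1, 7 were called, where 21.3% of all genes were. Si1AK against NT gave Serpinb2 alone, where 7.15% were called (3.97% higher, 3.18% lower). Without SiC replicate 1, Serpinb1a was called as well (-0.52), where 11.9% of all genes were. Leaving out an SiC array moves these calls because all groups share the estimate of spread.

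Within slides the called differences kept their signs. With Si2AK against SiC, slide 1 and slide 2 gave 2.20 and 1.60 for Serpinb1a, 1.45 and 1.34 for Serpinb2, 1.19 and 0.90 for Serpinb5, 0.70 and 0.68 for Serpinb9 and 0.85 and 0.37 for Serpinb8. With Si1AK they gave 1.36 and 0.89 for Serpinb2, -0.58 and -1.17 for Serpinb1a and -1.96 and -1.97 for Serpinb9e. Calls within a slide were few, 2 and 1 of 8 members with Si2AK and 0 and 0 with Si1AK, where 0.746%, 0.895%, 0% and 0.169% of all genes were called. On slide 1 SiC was a single array and on slide 2 Si2AK was, and each is assumed to vary like the other groups. With the slide as a block in the fit of all arrays, Si1AK against NT called 2 members, where 10.9% of all genes were called. Si2AK against NT then called 7, with Serpinb6b and Serpinb8 added, where 19.2% of all genes were called.

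Of 17 further clade B genes on the array, 9 passed the filter. Against SiC, 6 of these rose with Si2AK, where 8.55% of all genes did, and 0 were called with Si1AK, where 4.42% were. The largest were the Serpinb9 relatives Serpinb9g (2.24 ± 0.333) and Serpinb9f (2.11 ± 0.248), followed by Serpinb6d (1.28 ± 0.167). The probes of Serpinb9f and Serpinb9g share a run of 41 bases, so they cannot be taken as separate measurements. The Serpinb6e probe matched a Serpinb6c probe at 46 of 56 bases and that of Serpinb6a at 43 of 55. Its values are uncertain as well. Against Si1AK, 5 of the 9 were higher with Si2AK, where 6.34% of all genes were. Serpinb9f (2.56), Serpinb9g (2.46) and Serpinb1b (1.30) were ahead. Serpinb1c was well above background on 3 of 3 Si2AK arrays, 0 of 4 Si1AK, 1 of 4 NT and 1 of 3 SiC arrays. It passed the filter through Si2AK alone, so its level there is no support for a rise. Its highest array was SiC replicate 1 (-2.51), of raised signal, against -4.91, -2.71 and -4.41 in Si2AK. The mean in Si2AK was 4.24-fold above the lowest signal well above background on each Si1AK array. The gene's own signal was used where that was higher. Without Si2AK replicate 2, an array of raised signal, the fold was 2.70, an alternative chosen after seeing the data.

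Along the chromosomes, the 3 tested members on chromosome 1 all rose with Si2AK against SiC, and of the 5 on chromosome 13, 2 did. Of all tested genes, 8.55% were called higher there. Among the 3, Serpinb8 was called in only 16 of 27 processing settings. With Si1AK, 1 of the 3 on chromosome 1 rose, and 2 of the 5 on chromosome 13 fell. Of all tested genes, 3.23% were then called higher and 1.19% lower. These counts cover the members alone. Of the 9 further clade B genes tested, Serpinb10 and Serpinb3c lie on chromosome 1 and the others on chromosome 13. With Si2AK against SiC, 6 of the 9 rose. Serpinb3c did not (mean -4.63 in Si2AK and -4.14 in SiC), so most of the 6 lie on chromosome 13. Some of their probes are near copies, as given above. The difference between chromosomes was not tested.

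**Figure D3:**
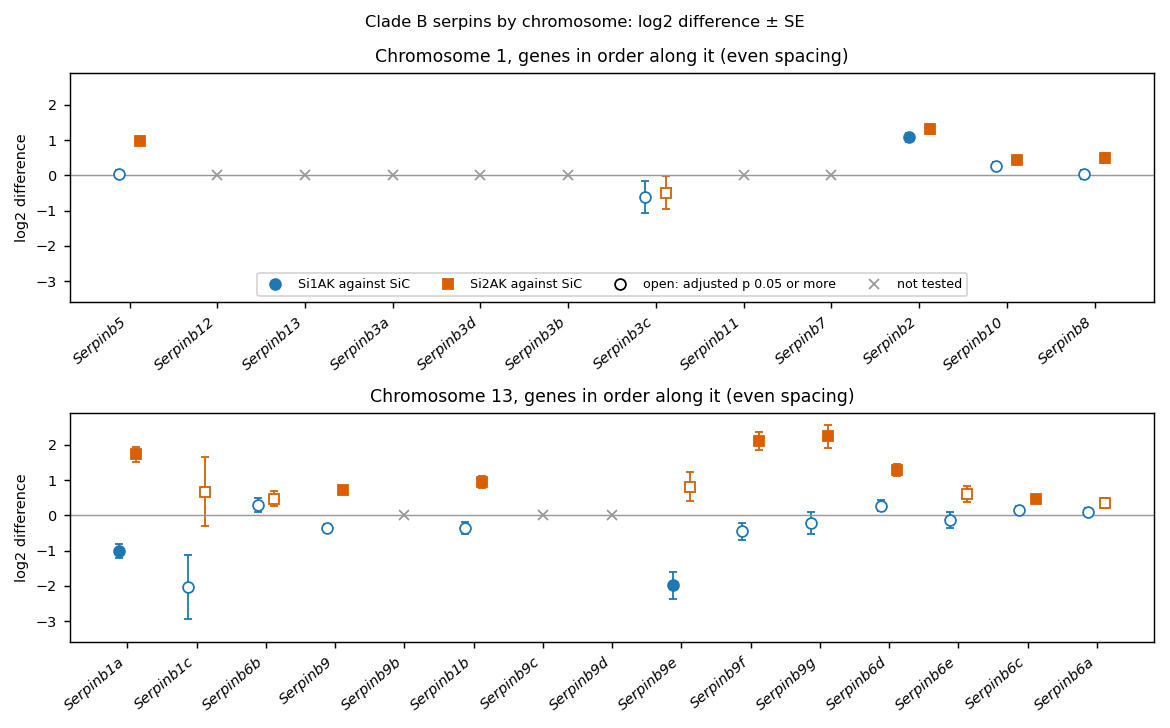
Clade B serpins in their order along chromosomes 1 and 13, evenly spaced, with the log2 difference ± SE against SiC for Si1AK (circles) and Si2AK (squares). Filled points have an adjusted p below 0.05 and crosses mark genes that were not tested. All filled squares lie above 0, while the filled circles are Serpinb2 above 0 and Serpinb1a and Serpinb9e below it. For Serpinb1c in Si1AK the signal was not well above background on any array.

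The proteases that clade B serpins are known to bind, or that act beside them, were 36 genes, of which 22 were tested. Against SiC, 3 rose with Si1AK and 0 fell. Plau, which encodes urokinase, the protease that Serpinb2 inhibits, rose by 1.26 ± 0.129 (adjusted p = 0.000315), Ctsh, a lysosomal cathepsin, by 0.60 ± 0.112, and Klk8, a kallikrein of skin, by 0.35 ± 0.0846. With Si2AK 5 rose and 0 fell, led by Casp4, an inflammatory caspase (1.19 ± 0.245), Tmprss11e, a membrane serine protease (1.11 ± 0.223), and Plau (0.78 ± 0.138). Plau and Serpinb2 were thus both called higher with each siRNA. The medians of the list were 0.04 with Si1AK and 0.22 with Si2AK. Of all tested genes, 3.23% were called higher with Si1AK and 8.55% with Si2AK, which applies to the lists below as well.

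Serpins of other clades, mostly secreted, gave 11 tested genes of 18. With Si1AK against SiC 1 rose, Serpind1, heparin cofactor II (1.54 ± 0.272). With Si2AK 1 rose, Serpina1a, an alpha-1-antitrypsin gene (0.93 ± 0.256), and 1 fell, Serpina3g (-0.99 ± 0.138). Other inhibitors of the epithelium, such as the stefins that block cathepsins, gave 16 tested of 25. With Si2AK 4 rose and 0 fell, led by Stfa1 (2.09 ± 0.49), Stfa2 (1.47 ± 0.254) and Stfa2l1 (1.40 ± 0.339), genes of near copies whose probes were not compared. With Si1AK 2 rose, Cst6, a cystatin of the epidermis (0.68 ± 0.108), and Wfdc2 (0.62 ± 0.0886).

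Keratinocyte markers moved alongside when compared with SiC. Of 17 tested, 11 rose with Si2AK against SiC and 0 fell, with a median of 0.63, and 1 rose with Si1AK, with a median of -0.05. Against NT, 6 rose and 0 fell with Si2AK, and 0 rose and 4 fell with Si1AK. Of all tested genes, 7.88% were called higher with Si2AK against NT, and 3.18% lower with Si1AK against NT. The summed signal of the keratinocyte list, on the log2 scale relative to the percentile, was 10.44 to 10.66 in NT, 10.04 to 10.40 in SiC, 10.19 to 10.36 in Si1AK and 10.55 to 10.60 in Si2AK. Its part in the rise of the clade B serpins was not tested. Serpinb1a and Serpinb9 are known in leukocytes. Of 13 leukocyte genes, 7 were well above background on all arrays, while Ptprc, Lyz2, Mpo and Adgre1 were among those not well above it on all NT arrays. The summed level of that list was 4.29 to 4.71 in SiC and 4.24 to 4.37 in Si2AK, and 0 of its 7 tested genes were called with either siRNA against SiC. Of the fibroblast, endothelial and melanocyte lists, 3 of 9, 3 of 5 and 3 of 5 genes were well above background on all arrays. Against SiC, 1, 0 and 1 of their tested genes rose with Si2AK and 0 with Si1AK. Their summed levels were 0.05 to 0.91, 3.11 to 3.25 and 1.60 to 1.71 in SiC, and 0.66 to 1.11, 3.15 to 3.54 and 2.27 to 2.40 in Si2AK.

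Apart from these lists, for each member called in at least 2 of the comparisons, the tested genes with the most similar pattern were found by the root mean square difference of centred levels over the 14 arrays. For Serpinb1a the nearest was Serpinb9f (0.26), then Gpat3 (0.26) and Trib3 (0.29), where Serpinb1a itself had an SD of 1.06. Gpat3 stood at 0.91 in NT, 0.99 in SiC, 0.28 in Si1AK and 2.52 in Si2AK. For Serpinb2 it was Slc31a2 (0.16), then Lce1j (0.19) and Lce1a2 (0.19), with an SD of 0.60 for Serpinb2. Slc31a2 stood at 1.12, 1.21, 1.98 and 2.27 in the same order of groups. For Serpinb5 the nearest were Slc25a33, Ptges3l and Gmppb (0.09 to 0.10). Those of Serpinb8 were Ms4a4c, Arl6ip6 and Cyp2u1 (0.04 to 0.05). Those of Serpinb9 were Eaf1, Ero1b and Cldn12 (0.17 each). For Serpinb9e, Hid1, Serpinb1a and Il6 were nearest but farther off (0.59 to 0.72, with an SD of 1.32).

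**Figure D4:**
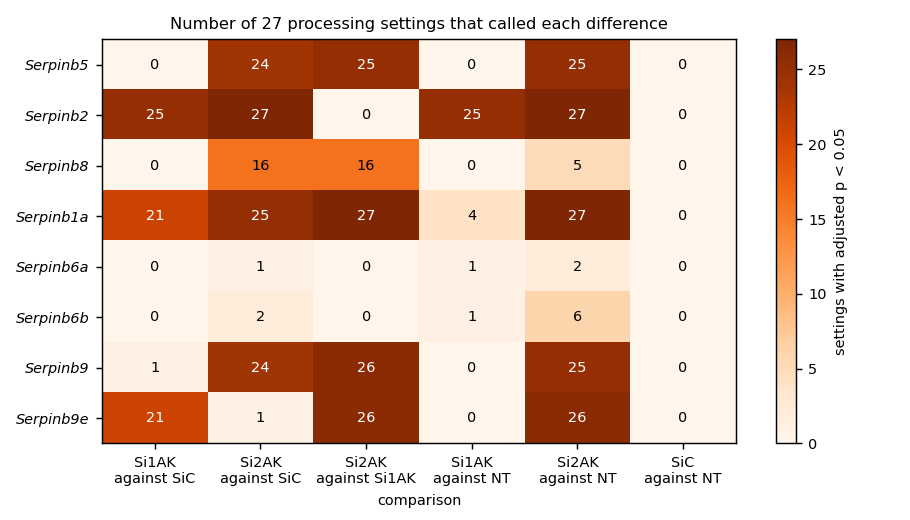
Number of 27 processing settings, the reported one included, in which each member was called (adjusted p below 0.05) in each comparison, on a colour scale from 0 to 27. Serpinb1a is called in all 27 for Si2AK against Si1AK and Serpinb2 in all 27 for Si2AK against SiC, whereas Serpinb8 is called in 16 for each of these comparisons. The settings share arrays and are not independent.

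Over those settings, the calls of Si2AK against SiC held in 27 for Serpinb2, 25 for Serpinb1a, 24 each for Serpinb5 and Serpinb9 and 16 for Serpinb8. With Si1AK against SiC they held in 25 for Serpinb2 and 21 each for Serpinb1a and Serpinb9e. The difference of Serpinb2 ranged from 0.89 to 1.36 with Si1AK and from 1.17 to 1.45 with Si2AK.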

How the data were processed

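Total RNA of the 14 samples (0.2 µg) was labelled with Cy3 and hybridised to 1-colour Agilent arrays, per the labels. The scanner software was Feature Extraction 10.7.3.1 with probes placed on mm9, per the file headers, and the processed signal is an intensity with background and spatial trends removed within each array and no scaling between arrays. The deposited files also give raw intensities and, in a unit other than these, 0 or 1 marks for spots well above background. A table of log2 values was deposited by the authors. limma is named in the submitters' processing notes, and the background step behind that table is not given in the sources used here.

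Spots marked as outliers or uneven were left out and spots of a probe averaged. Where a gene had several probes, the one with the highest mean level was used. All 14 arrays were fitted with limma 3.58.1 in R 4.3.3 (lmFit, eBayes, 10 residual degrees of freedom), after the script was tested on simulated data, with Benjamini-Hochberg adjustment over 21356 genes. No member value was missing, and no spot was saturated. The number of arrays limits the precision. Errors are SE of differences. Gene symbols came from RefSeq accessions for 27656 probes. All probes of the members are described, and from each other list up to 3 called genes with the largest difference per comparison. Members and lists were chosen with earlier results of these data known. For NT and Si1AK, same-numbered arrays deviated together in all 4 pairs (r from 0.12 to 0.24), a pairing seen in the data only. Each of these pairs also shares a slide, so replicate number and slide cannot be told apart there. In no other pair of groups was every r above 0.1. The alternatives were other normalizations, filters, probe choices, slide and replicate blocks, fewer groups, and leaving arrays out.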

Additional observations from a re-analysis of the deposited data

Results flagged for a closer look

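Serpinb8 in NT replicate 2 stood at 3.50, while the other 3 NT arrays lay between 3.32 and 3.35, a gap that is large for a group of 4. Of 22 groups of 4 arrays examined for the probes of the members this was the 1 that stood out, and chance alone gives about 1 in 20.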

How the results depend on the processing

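No called difference of a member changed sign under any alternative run. Counts of members called stayed within 1.5 times the reported one except in the following. Fits of slide 1 alone and slide 2 alone called fewer members in every comparison that had calls, and a smaller share of all genes. In these fits SiC (slide 1) or Si2AK (slide 2) was a single array. Fits of only the groups compared gave 1 for Si1AK against SiC and 1 for Si2AK against SiC. These fits hold fewer arrays, and called 1.29% and 0.482% of all genes. Si1AK against NT gave 3 with the authors' table, 2 with the slide as a block and 3 without both arrays of raised signal (the cause was not tested). The share of all genes called was then 9.39%, 10.9% and 14.7%, from 7.15%. Leaving out 1 array at a time gave 2 to 3 for Si1AK against SiC, 4 to 6 for Si2AK against SiC, 4 to 5 for Si2AK against Si1AK, 1 to 2 for Si1AK against NT, 5 to 7 for Si2AK against NT and 0 for SiC against NT. Quantile normalization moved the median of all genes from -0.06 to 0.06 for Si1AK against SiC, and the uncalled difference of Serpinb8 there changed from 0.03 to -0.05. Low signal limits Serpinb3a, Serpinb9b and the dimmer probe of Serpinb9e.

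The labels give groups the same replicate numbers, and same-numbered arrays deviated together in part of the pairs (r from -0.69 to 0.74 over 19 pairs, 12 above 0.1, and 5 of 14 arrays closest to their own number). With the replicate block, the counts were 3 for Si1AK against SiC, 5 for Si2AK against SiC and 5 for Si2AK against Si1AK. They were 1 for Si1AK against NT, 5 for Si2AK against NT and 0 for SiC against NT. All were as without the block, and no call of a member changed. The share of all genes called was 3.7% for Si1AK against SiC and 11.8% for Si2AK against Si1AK. Against NT it was 7.03% for Si1AK and 13.9% for Si2AK.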
